A study of Homo sapiens with 11 samples.

Results

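The annotations described here are 9 mature miRNAs of 2576 in the deposited count tables whose hairpins are annotated on top of small nucleolar RNA (snoRNA) genes. They are hsa-miR-1248, both arms of hsa-miR-664a, hsa-miR-664b and hsa-miR-3607, hsa-miR-1291 and hsa-miR-3651, and membership follows from these names. They were measured by small RNA sequencing in SH-SY5Y, a human neuroblastoma cell line and a subline of SK-N-SH, which takes on a neuron-like form in all-trans retinoic acid (ATRA). All 11 libraries share 7 days of differentiation in 10 µM ATRA. In co-treatment, 3 libraries received 10 µM H2O2 during those 7 days and 3 control libraries did not. In pre-treatment, 3 libraries received 10 µM H2O2 for 72 h, which was removed before ATRA, and 2 control libraries received ATRA alone. Each approach was described as 3 treated and 3 untreated biological replicates, of which 1 outlying sample was removed. All libraries come from the same tumour-derived line, so the replicates are cultures of it and not different donors.

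snoRNAs are nuclear RNAs that guide chemical modification of ribosomal and spliceosomal RNA. The H/ACA class guides pseudouridylation, folds into a pair of hairpins joined by a hinge (box H) and ends shortly after the sequence ACA. Most human snoRNAs are cut from introns of housekeeping genes and are held in the nucleolus by proteins such as dyskerin, the product of DKC1. Some are cut further into fragments of miRNA length, part of which have been found with Argonaute proteins, and miRNA databases list several such fragments as miRNAs. A count for such an annotation can therefore hold a functional miRNA, a fragment of the snoRNA, or both, and counting by annotation does not tell them apart.

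Mature sequences were found in RefSeq for 7 of the 9 annotations and are shown to place each fragment in its snoRNA. Each is written 5′ to 3′ with the seed (bases 2 to 8, the part that pairs with targets) in capitals.
hsa-miR-1248: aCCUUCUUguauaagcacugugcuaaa
hsa-miR-1291: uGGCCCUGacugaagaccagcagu
hsa-miR-664b-5p: uGGGCUAAgggagaugauugggua
hsa-miR-664a-5p: aCUGGCUAgggaaaaugauuggau
hsa-miR-664b-3p: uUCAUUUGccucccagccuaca
hsa-miR-664a-3p: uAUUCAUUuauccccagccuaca
hsa-miR-3651: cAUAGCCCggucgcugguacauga
The 7 seeds were all different, so none of these annotations forms a seed family with another. hsa-miR-664b-3p shares its seed with hsa-miR-579-3p, which was lowered in co-treatment (log2FC −1.22, FDR = 0.00445 from edgeR's exact test) and had a log2FC of 0.87 in pre-treatment (FDR = 0.234 from the same test). hsa-miR-664a-5p shares a seed with hsa-miR-4794 and hsa-miR-1291 with hsa-miR-6775-3p, neither of which had enough counts to be tested.

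Matched to GRCh37, the assembly called hg19 on which the reads were aligned, the 7 sequences lay in 5 snoRNA genes of the H/ACA class. hsa-miR-1248 (chr3:186504464-186504490, plus strand) is the first 27 bases of SNORA81, inside EIF4A2, the gene of a translation initiation helicase. hsa-miR-1291 (chr12:49048277-49048300, minus strand) starts 1 base into SNORA34, in an intron of KANSL2, the gene of a subunit of a histone acetyltransferase complex. The 5p annotations lie in the middle of their snoRNAs. hsa-miR-664b-5p (chrX:153996871-153996894, plus strand) starts 68 bases into SNORA36A, inside DKC1, and hsa-miR-664a-5p (chr1:220373928-220373951, minus strand) starts 67 bases into SNORA36B, in an intron of RAB3GAP2, the gene of a regulator of the GTPase Rab3. The remaining annotations lie at the 3′ end. hsa-miR-664b-3p (chrX:153996910-153996931, plus strand) and hsa-miR-664a-3p (chr1:220373891-220373913, minus strand) both stop 3 bases before the end of their snoRNA, so that their last letters are the ACA box itself. hsa-miR-3651 (chr9:95054743-95054766, minus strand) ends where SNORA84 ends, in an intron of IARS1, the gene of the cytosolic isoleucyl-tRNA synthetase. Some annotated transcripts of EIF4A2 and DKC1 hold an exon over the annotation, while the other annotations were intronic. The letters ACA were read on the snoRNA strand 3 bases before the annotated end. They were found in 4 of the 5 snoRNA genes (not in SNORA81 as annotated), against 19.6% of all 1458 annotated snoRNA and scaRNA genes. Those 1458 genes were not limited to the H/ACA class, which ends shortly after ACA. The comparison therefore shows no trait of the 5 beyond their class.

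**Figure D1:**
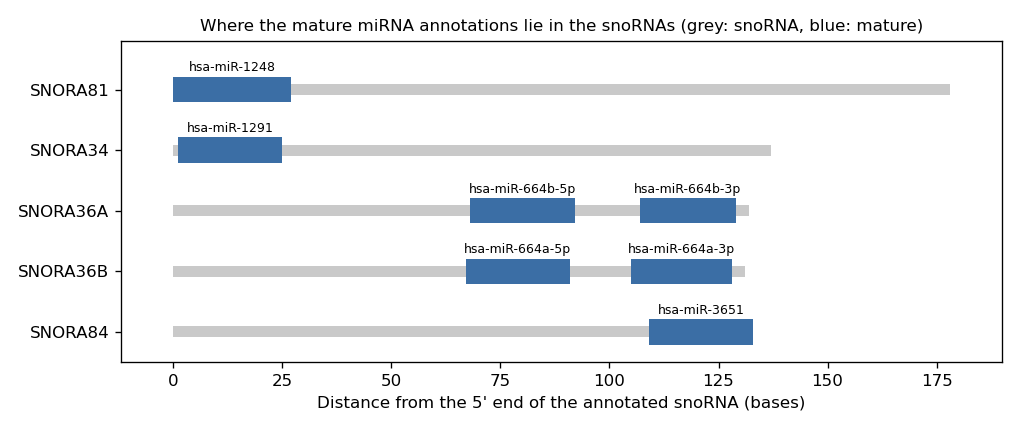
Position of the 7 mature annotations (blue) in the 5 annotated snoRNAs (grey), with the distance from the 5′ end of the snoRNA in bases on the x axis and 1 snoRNA in each row. hsa-miR-1248 and hsa-miR-1291 begin 0 and 1 base from the 5′ end, the 5p annotations of hsa-miR-664 lie in the middle, and hsa-miR-664a-3p, hsa-miR-664b-3p and hsa-miR-3651 lie within 3 bases of the 3′ end.

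SNORA36A and SNORA36B are near copies, identical at 87.9% of aligned positions. Their mature annotations were less alike, with 79.2% identity for the 3p pair and 68.0% for the 5p pair, and each of the 4 had a sequence of its own. Of the 7 sequences, 6 matched the genome at 1 place. hsa-miR-664b-3p also matched exactly at chr2:69747178-69747199 on the minus strand, which lies in SNORA36C, and reads with more than 1 possible origin may have been split or lost in counting.

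Libraries held 5343953 to 8927582 counts, and 3 counts, taken as the detection limit, correspond to 0.336 to 0.561 CPM (each count divided by its library total and brought to a common scale) depending on the library. These limits cover counting error only, since it is not stated whether molecular identifiers were used. CPM values below are scaled with TMM factors over all 11 libraries and measure 1 annotation across libraries. H2O2 was compared with control inside each experiment by the exact test of edgeR. A miRNA was called where its FDR (p adjusted by Benjamini-Hochberg over every miRNA tested) was under 0.05 and its log2FC was beyond 0.6 in either direction. SE denotes the standard error of a log2FC, taken from a quasi-likelihood fit in edgeR. In these bulk samples, fewer cells that carry an RNA and less of it per cell cannot be told apart. Among neuronal miRNAs, hsa-miR-137 (77318 to 247992 counts) and hsa-miR-128-3p (8016 to 15575 counts) were abundant, while hsa-miR-124-3p, which defines mature neurons, had at most 7 counts in any library. Over all tested miRNAs, pre-treatment control 2 held the lowest CPM of its 5 libraries for 20.5% and the highest for 27.6%, and co-treatment H2O2 replicate 2, the shallowest library, held the highest of 6 for 14.8%, where an equal split would give 1 in 5 and 1 in 6. The dependence of log2 CPM on GC content, read as the fitted value at the highest minus that at the lowest GC content, separated the co-treatment groups, from −1.54 to −0.88 in controls and from 0.83 to 1.68 with H2O2. In pre-treatment, control 1 stood apart at 2.17, against −0.73 to −0.15 in the other 4 libraries. For the called annotations, results are also given without pre-treatment control 1, pre-treatment control 2 or co-treatment H2O2 replicate 2. Tests of other structural RNA annotations and of cell type markers are given with all libraries only.

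In pre-treatment, 4 of the 7 tested annotations were called, against a background of 15.3% of the 868 miRNAs tested. The annotations were chosen with earlier results of these data known, so this comparison is descriptive. hsa-miR-1248, hsa-miR-1291 and hsa-miR-664b-5p were raised (5.41% of all miRNAs were) and hsa-miR-664a-3p was lowered (9.91% were). The H2O2 and control libraries did not overlap for these 4 annotations, as was the case for 46% of all tested miRNAs. The median log2FC over the 7 was 0.25, against −0.19 over all tested miRNAs, and it hides changes in both directions. The raised annotations begin at the 5′ end (hsa-miR-1248, hsa-miR-1291) or in the middle (hsa-miR-664b-5p). hsa-miR-664a-5p, also in the middle, was not called. Of the tested annotations at the 3′ end, hsa-miR-664a-3p was called and hsa-miR-3651 was not.

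hsa-miR-1248 stood at 698 and 136 counts in controls of pre-treatment and at 2656, 4661 and 5481 counts after H2O2. Every H2O2 library lay above both controls, and the controls themselves differed. The means were 581 ± 234 CPM (SD, n = 3) with H2O2 and 59.4 ± 55.5 CPM (SD, n = 2) without it. The log2FC was 3.28, or 9.72-fold (SE = 0.73, edgeR exact test FDR = 0.00128). Leaving out control 2 gave a log2FC of 2.54 and leaving out control 1 gave 4.8. It was called by the exact test without any 1 of the H2O2 libraries, and FDR reached 0.0488 without H2O2 replicate 3. Fits with a lone control hold no spread between controls, so only their log2FC is read.

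hsa-miR-1291 was counted 627 and 284 times in the controls and 1356, 1677 and 2549 times in the H2O2 libraries, again with no overlap. The means were 252 ± 98.8 CPM (SD, n = 3) with H2O2 and 65.3 ± 32.9 CPM (SD, n = 2) without it. The log2FC was 1.92, or 3.78-fold (SE = 0.47, edgeR exact test FDR = 0.00894). The call was lost without H2O2 replicate 2 (FDR = 0.116) or H2O2 replicate 3 (FDR = 0.136) in the same edgeR test, and log2FC was 1.49 without control 2 and 2.53 without control 1.

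hsa-miR-664b-5p was found with 423 and 155 counts in the controls and 639, 902 and 1287 counts in the H2O2 libraries. The lowest H2O2 library, at 76.8 CPM, was above the higher control, at 59.8 CPM. The log2FC was 1.61 or 3.05-fold (SE = 0.52, edgeR exact test FDR = 0.0493), close to the threshold. It was 1.08 without control 2 and 2.43 without control 1. The call was lost without any 1 of the H2O2 libraries (FDR from 0.133 to 0.301 in the edgeR exact test) and with library-size scaling, DESeq2 size factors or other filters on low counts (FDR from 0.0563 to 0.117).

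hsa-miR-664a-3p moved the other way. Its controls held 469 and 1983 counts, against 213, 211 and 180 counts in the H2O2 libraries, and the latter were low and close to each other while the controls differed by a wide margin. The means were 26.8 ± 2.38 CPM (SD, n = 3) with H2O2 and 180 ± 161 CPM (SD, n = 2) without it. The log2FC was −2.82, or 7.08-fold lower (SE = 0.60, edgeR exact test FDR = 8.34e-04). Without control 2 its log2FC was −1.31 and without control 1 it was −3.51. The call was lost without any 1 of the H2O2 libraries (FDR from 0.0603 to 0.0689 in the edgeR exact test).

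hsa-miR-664a-5p, cut from the same snoRNA as hsa-miR-664a-3p, reached 820 and 1405 counts in the controls and 1176, 1074 and 1165 counts in the H2O2 libraries. The H2O2 libraries lay between both controls, and its log2FC of −0.15 (SE = 0.35, edgeR exact test FDR = 0.834) was smaller than its error. For hsa-miR-3651 there were 45 and 16 counts in the controls and 15, 8 and 19 counts in the H2O2 libraries, which overlapped. Its log2FC was −1.24 (SE = 0.57, edgeR exact test FDR = 0.195), −1.77 without control 2 and −0.40 without control 1. hsa-miR-3607-3p gave 119 and 59 counts without H2O2 and 126, 110 and 114 counts with it, for a log2FC of 0.25 (SE = 0.36, edgeR exact test FDR = 0.763). Without control 1 that log2FC was 0.77, and without control 2 it was −0.12.

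By quasi-likelihood, a stricter test in small groups because it accounts for error in the estimated dispersion, none of the 7 was called in pre-treatment, and 1.96% of all tested miRNAs were. Its FDR was 0.0560 for hsa-miR-1248, 0.0541 for hsa-miR-664a-3p, 0.0590 for hsa-miR-1291 and 0.110 for hsa-miR-664b-5p. DESeq2 called the same 4 annotations as the exact test, and 135 of all 868 miRNAs tested.

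**Figure D2:**
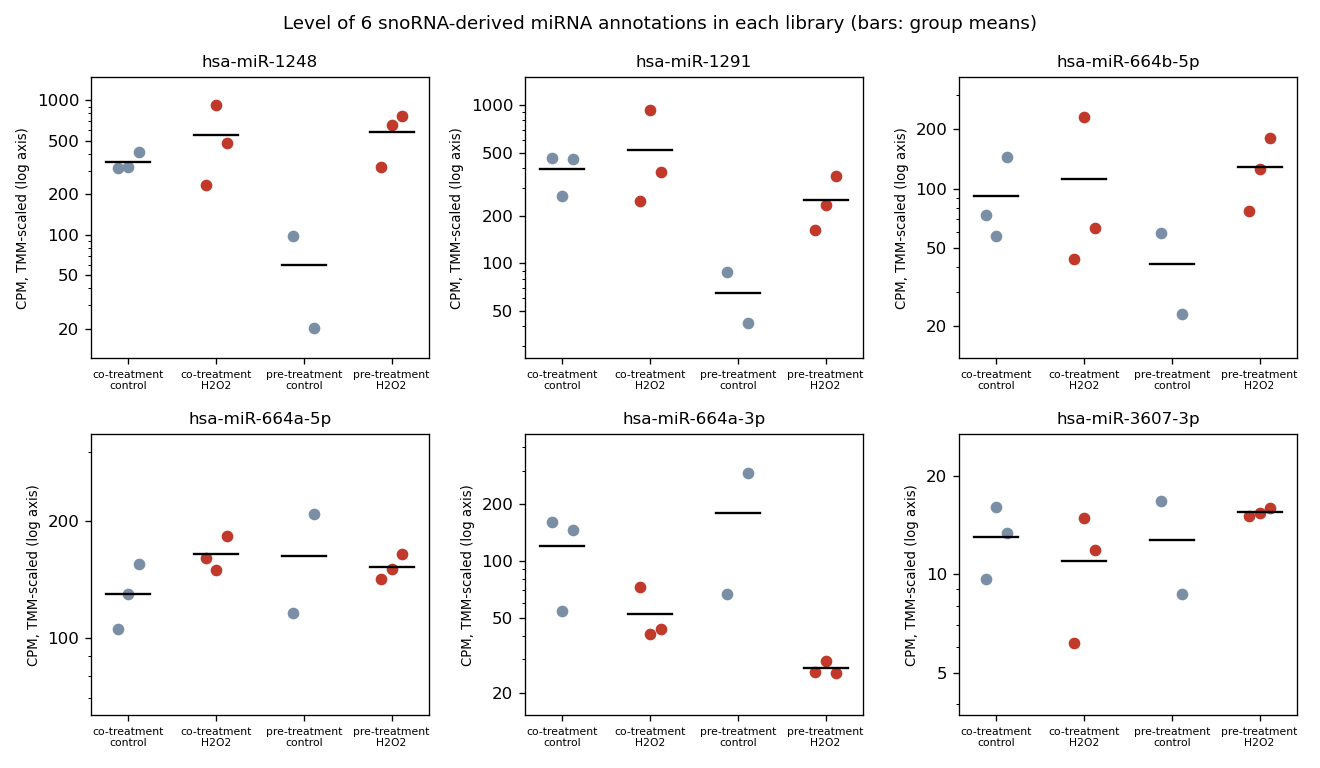
CPM (TMM-scaled, log axis) of 6 annotations in every library, with 1 point per library, control libraries in grey-blue, H2O2 libraries in red and bars at group means. The pre-treatment controls of hsa-miR-1248 lie at 98.6 and 20.1 CPM, below the 3 H2O2 libraries at 319 to 771 CPM, while those of hsa-miR-664a-3p lie at 66.3 and 294 CPM, above the H2O2 libraries at 25.3 to 29.6 CPM.

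In co-treatment, only hsa-miR-664a-3p of the 7 tested annotations was called, against 26.2% of the 790 miRNAs tested. It was lowered, as were 15.6% of all miRNAs, and none of the 7 was raised, against 10.6%. It had 1041, 445 and 1030 counts in the controls and 655, 246 and 328 counts in the H2O2 libraries. Control 2, at 54.3 CPM, lay below H2O2 replicate 1, at 72.3 CPM, so the groups overlapped. The means were 52.4 ± 17.3 CPM (SD, n = 3) with H2O2 and 120 ± 57.5 CPM (SD, n = 3) without it. The log2FC was −1.20, or 2.29-fold lower (SE = 0.36, edgeR exact test FDR = 0.00803). The call was lost in that edgeR test without control 1 (log2FC −0.86, FDR = 0.145), control 3 (FDR = 0.0625), H2O2 replicate 2 (FDR = 0.0737) or H2O2 replicate 3 (FDR = 0.0537). A fit that removed the GC trend of every library, added once the data had been seen, also ended it and moved log2FC from −1.05 to −0.54 (edgeR quasi-likelihood FDR = 0.313), while hsa-miR-664a-5p was then called and raised (log2FC 0.88, edgeR quasi-likelihood FDR = 0.0449). In 1 quasi-likelihood fit of both experiments the log2FC of hsa-miR-664a-3p was −1.19 and its FDR 0.118 (edgeR). The quasi-likelihood test of co-treatment alone called hsa-miR-664a-3p too (FDR = 0.0223), and 22.9% of all tested miRNAs.

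hsa-miR-1248 had 2048, 2607 and 2937 counts in the co-treatment controls and 2130, 5571 and 3651 counts in the H2O2 libraries. The H2O2 libraries spread from 235 to 932 CPM around controls at 316 to 415 CPM, and the log2FC of 0.63 did not pass the test (SE = 0.36, edgeR exact test FDR = 0.193). Without H2O2 replicate 2 it was 0.12, and without H2O2 replicate 1 it was 1.02 and called. hsa-miR-1291 reached 3013, 2192 and 3207 counts in the controls and 2250, 5600 and 2834 counts in the H2O2 libraries, with a log2FC of 0.38 (SE = 0.38, edgeR exact test FDR = 0.50) that was −0.27 without H2O2 replicate 2. For hsa-miR-664b-5p the controls held 478, 469 and 1020 counts and the H2O2 libraries 398, 1375 and 476. Its log2FC of 0.29 (SE = 0.46, edgeR exact test FDR = 0.681) became −0.69 without H2O2 replicate 2. For these 3 annotations the highest value of the experiment was in that library, at 2.48 to 3.63 times the median of the other 5.

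hsa-miR-664a-5p was the only annotation whose co-treatment groups did not overlap, against 41.6% of all tested miRNAs. It had 686, 1063 and 1093 counts in the controls and 1452, 895 and 1373 counts in the H2O2 libraries. In CPM the controls reached from 106 to 154 and the H2O2 libraries from 150 to 183 with TMM factors over all 11 libraries, where they overlapped by a small margin, and they were apart with the factors of co-treatment alone. Its log2FC was 0.31 (SE = 0.26, edgeR exact test FDR = 0.420). hsa-miR-3607-3p gave 63, 132 and 95 counts without H2O2 and 56, 89 and 89 counts with it, a log2FC of −0.30 (SE = 0.35, edgeR exact test FDR = 0.586). hsa-miR-3651 was near the detection limit, with 8, 6 and 2 counts in the controls and 11, 8 and 8 counts in the H2O2 libraries.

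The other annotations were too low to be tested in either experiment. hsa-miR-664b-3p had 1, 0 and 1 counts in the co-treatment controls and 0 in all 3 H2O2 libraries, and 6 and 2 counts in the pre-treatment controls against 0, 0 and 3 with H2O2. hsa-miR-3607-5p had 0 to 7 counts in every library. At this depth no difference between groups was detectable for them.

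**Figure D3:**
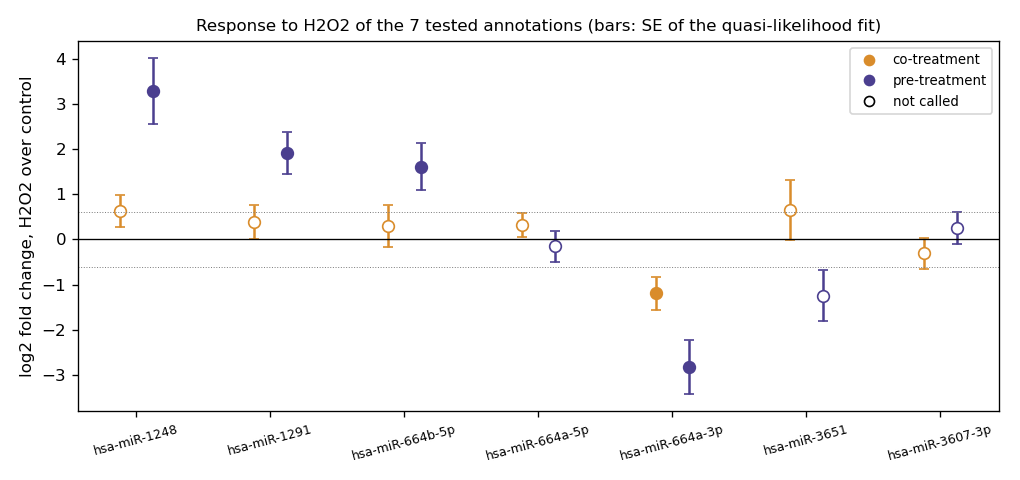
log2FC of H2O2 over control for the 7 tested annotations, with bars for the SE of the quasi-likelihood fit, co-treatment in orange and pre-treatment in purple, filled points for calls of the exact test and dotted lines at the log2FC threshold of 0.6. hsa-miR-1248, hsa-miR-1291 and hsa-miR-664b-5p are called and raised in pre-treatment only, and hsa-miR-664a-3p is called and lowered in both experiments.

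An interaction term asked if the response to H2O2 differed between pre-treatment and co-treatment. The exposures differ in length (72 h against 7 days) as well as in timing, and only in pre-treatment was H2O2 removed before ATRA. The term was fitted by quasi-likelihood over the 11 libraries, where a batch between the experiments and the protocol itself cannot be told apart. Over all 945 miRNAs in that fit, 27.3% passed (12.9% with the higher response in pre-treatment and 14.4% with the lower). Of the 8 annotations that could be tested, only hsa-miR-1248 passed (FDR = 0.0244 from edgeR's quasi-likelihood test). Its log2FC was 2.63 higher in pre-treatment than in co-treatment (SE 0.80). The call was lost (FDR from 0.0507 to 0.0623) without co-treatment control 3, co-treatment H2O2 replicate 1, co-treatment H2O2 replicate 3 or pre-treatment H2O2 replicate 3. The difference fell to 1.91 on omitting pre-treatment control 2 and was 4.01 on omitting control 1. In separate fits of miRNAs with a sequence, removing the GC trend moved log2FC of hsa-miR-1248 from 2.92 to 2.498 in pre-treatment. In co-treatment it moved from 0.79 to 1.41. These fits called hsa-miR-1248 in neither experiment, with or without the trend. In pre-treatment the edgeR quasi-likelihood FDR was 0.0895 with the trend kept and 0.127 with it removed. In co-treatment it was 0.110 and 0.0762. The difference between experiments was not tested with the trend removed. For hsa-miR-1291 the difference was 1.55 (SE = 0.68, edgeR quasi-likelihood FDR = 0.105) and for hsa-miR-664b-5p it was 1.34 (SE = 0.84, edgeR quasi-likelihood FDR = 0.259). Both passed without co-treatment H2O2 replicate 2, with edgeR quasi-likelihood FDR of 0.0197 and 0.0313. Without pre-treatment control 1 the difference for hsa-miR-1291 was 2.00, and without pre-treatment control 2 it was 1.12. For hsa-miR-664a-3p the difference was −1.55 (SE = 0.70, edgeR quasi-likelihood FDR = 0.112). Omitting pre-treatment control 2 left −0.10, and omitting control 1 gave −2.48.

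Levels of the groups were also placed in order across the experiments, where protocol and batch cannot be told apart. For hsa-miR-1248 the order was pre-treatment control (59.4 CPM), co-treatment control (349 CPM), co-treatment H2O2 (551 CPM) and pre-treatment H2O2 (581 CPM). Both pre-treatment controls lay below each of the other 9 libraries, and the remaining groups overlapped. For hsa-miR-1291 the order was pre-treatment control (65.3 CPM), pre-treatment H2O2 (252 CPM), co-treatment control (395 CPM) and co-treatment H2O2 (521 CPM), again with both pre-treatment controls below every other library and overlap between all other neighbours. For hsa-miR-664b-5p the order was pre-treatment control (41.4 CPM), co-treatment control (91.6 CPM), co-treatment H2O2 (112 CPM) and pre-treatment H2O2 (128 CPM), and all neighbours overlapped. For hsa-miR-664a-3p the pre-treatment H2O2 libraries were lowest (26.8 CPM), and none of them reached the co-treatment H2O2 libraries (52.4 CPM), while co-treatment H2O2, co-treatment controls (120 CPM) and pre-treatment controls (180 CPM) overlapped in that order. The group means of hsa-miR-664a-5p were between 130 and 164 CPM, and neighbouring groups overlapped.

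Ratios of counts within a library do not depend on scaling. The log2 ratio of hsa-miR-664a-3p over hsa-miR-664a-5p, which come from the same snoRNA, was −0.15 ± 0.92 (SD, n = 2) in pre-treatment controls and −2.50 ± 0.18 (SD, n = 3) with H2O2. The groups did not overlap, and the difference of −2.35 had an exact permutation p of 0.2 (two-sided), the smallest that 2 against 3 libraries can give. In co-treatment the ratio was −0.25 ± 0.94 (SD, n = 3) in controls and −1.69 ± 0.48 (SD, n = 3) with H2O2, a difference of −1.44 with overlapping groups (exact permutation p = 0.2, two-sided, where 0.1 is the smallest possible). Leaving out single libraries gave differences from −3.0 to −1.69 in pre-treatment and from −1.95 to −1.02 in co-treatment. Groups of this size cannot give an exact permutation p under 0.05, so both differences are descriptive. The arm ratio of hsa-miR-664b rests on 3p counts of 0 to 6 and that of hsa-miR-3607 on 5p counts of 0 to 7, so no comparison is drawn from them.

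The near copies were also compared at the same position of the snoRNA, a ratio chosen after the values were seen. The log2 ratio of hsa-miR-664b-5p over hsa-miR-664a-5p was −2.07 ± 1.57 (SD, n = 2) in pre-treatment controls and −0.33 ± 0.52 (SD, n = 3) with H2O2, without overlap (exact permutation p = 0.2, two-sided). The difference of 1.74 was 0.62 without control 2. In co-treatment the ratio was −0.60 ± 0.54 (SD, n = 3) in controls and −0.92 ± 1.35 (SD, n = 3) with H2O2, which overlapped (exact permutation p = 0.8, two-sided).

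**Figure D4:**
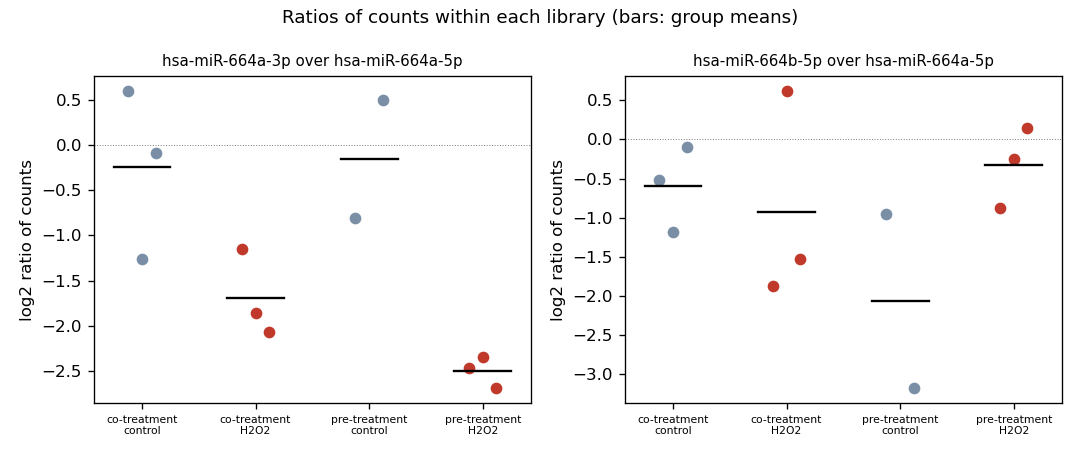
log2 ratios of counts within each library, with 1 point per library, control libraries in grey-blue, H2O2 libraries in red and bars at group means. On the left, hsa-miR-664a-3p over hsa-miR-664a-5p is lowest in the pre-treatment H2O2 libraries, from −2.69 to −2.34. On the right, hsa-miR-664b-5p over hsa-miR-664a-5p is lowest in pre-treatment control 2, at −3.18.

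Profiles were then compared across all 11 libraries. Likeness was measured as the mean absolute difference of log2 CPM, each miRNA centred on its own mean, over the 11 libraries and 763 other miRNAs tested in both experiments. The profile nearest to hsa-miR-1248 was hsa-miR-3618 (0.41), followed by hsa-miR-1291 (0.55), against a median of 1.16 to all others, and hsa-miR-664b-5p ranked 6 (0.64). Nearest to hsa-miR-664b-5p was hsa-miR-3653 (0.31, median 0.89), another annotation on a snoRNA, then hsa-miR-4762-3p (0.50). For hsa-miR-1291 they were hsa-miR-3940-3p (0.53, median 0.97) and hsa-miR-3653 (0.53). The profile of hsa-miR-664a-3p was among the farthest from hsa-miR-1248, at rank 759 of 763, and nearest to hsa-miR-129-1-3p (0.26) and hsa-miR-1227-3p (0.27). Nearest to hsa-miR-664a-5p were hsa-miR-183-5p (0.12) and hsa-miR-425-3p (0.14), to hsa-miR-3651 hsa-miR-423-3p (0.37) and hsa-miR-2110 (0.37), and to hsa-miR-3607-3p hsa-miR-215-5p (0.25) and hsa-miR-4523 (0.25). These values describe the libraries, which share depth, experiment and group.

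**Figure D5:**
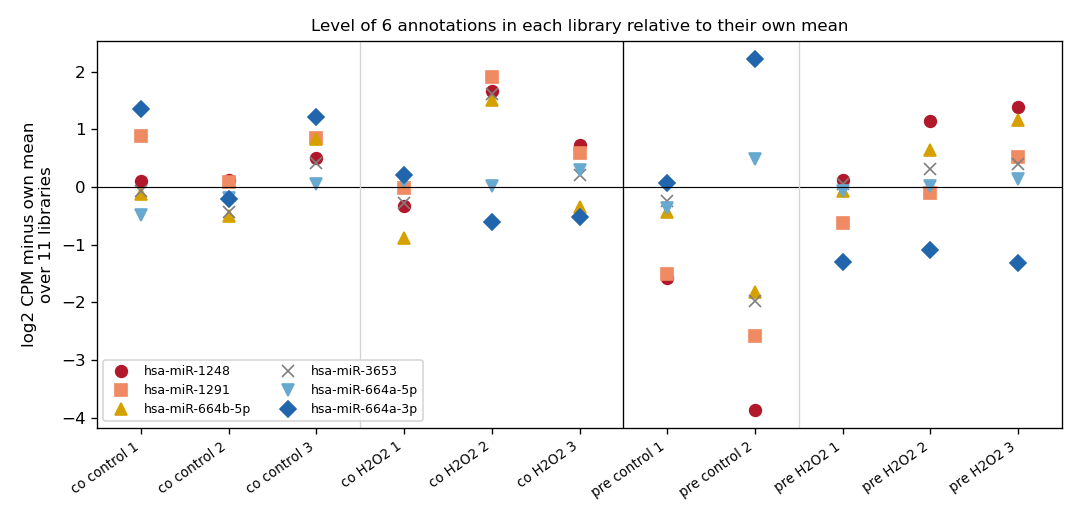
log2 CPM (TMM-scaled) of 5 annotations and of hsa-miR-3653 in each of the 11 libraries, each relative to its own mean over the libraries. In pre-treatment control 2, hsa-miR-664a-3p stands above its mean and hsa-miR-1248, hsa-miR-1291, hsa-miR-664b-5p and hsa-miR-3653 stand below theirs. In co-treatment H2O2 replicate 2 those 4 stand above their means.

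Other annotations of structural RNAs were read in the same fits. The list on further snoRNA or scaRNA genes held hsa-miR-3653, named without an arm in the tables, and both arms of hsa-miR-6516. It may not be complete. Of these 3, hsa-miR-6516-3p was lowered in co-treatment (log2FC −1.01, SE 0.28, FDR = 0.00671 from edgeR's exact test), without overlap between groups, and none was called in pre-treatment. hsa-miR-3653 had 647, 635 and 989 counts in the co-treatment controls, 782, 1896 and 910 counts with H2O2, 621 and 179 counts in controls of pre-treatment and 897, 924 and 979 counts with H2O2. Its H2O2 libraries lay above both controls in pre-treatment, with a log2FC of 1.12 that did not pass the test (SE = 0.49, edgeR exact test FDR = 0.175). Of 9 annotations on transfer, ribosomal or small nuclear RNA, 3 had enough counts to be tested and none was called in either experiment by the exact test. The most abundant, hsa-miR-1260a, which matches transfer RNA, had 27 to 96 counts per library and a log2FC of −0.78 in pre-treatment (SE = 0.53, edgeR exact test FDR = 0.409). The list summed to 7.26 to 21.5 CPM in the pre-treatment controls and 6.44 to 10.9 CPM with H2O2.

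Markers of other cell types also varied in pre-treatment, some between the groups and some in control 1 alone. hsa-miR-122-5p, the hallmark miRNA of liver, was raised (log2FC 1.88, FDR = 0.0116 from edgeR's exact test), from 97.4 and 254 CPM in the controls to between 551 and 835 CPM. Of the 4 red blood cell miRNAs, 2 of the 3 tested were raised, and the list summed to 2.12 to 3.70 CPM in controls and 10.5 to 15 CPM with H2O2. The white blood cell list summed to 119 CPM in control 1 and 13.9 CPM in control 2, with the H2O2 libraries between them at 17.8 to 21.9 CPM. Its called member, hsa-miR-223-3p, had 540 counts in control 1 and 4 in control 2. The epithelial list summed to 205 CPM in control 1 and 58.2 CPM in control 2, again on either side of the H2O2 libraries (73.9 to 78.5 CPM), and its called member, hsa-miR-205-5p, had 1007 and 32 counts. Of each of these lists 1 of 4 was lowered. Of the muscle list, 1 of 2 tested was raised and 1 of 3 was at 0 in every pre-treatment library, with 1.55 to 4.15 CPM in controls and 6.25 to 6.72 CPM with H2O2. The neuronal list summed to 12355 and 22374 CPM in controls and to between 29795 and 37588 CPM with H2O2, although none of its 6 tested members was called by the exact test in pre-treatment. In co-treatment 3 of those 6 were lowered, and the sum was 31796 to 34672 CPM in controls and 15733 to 19147 CPM with H2O2. Of the other lists in co-treatment, 1 red blood cell miRNA was raised, 1 white blood cell miRNA was lowered, and the epithelial, liver and muscle lists held no call. The part of these differences in the results above was not tested.

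Together the 9 annotations made up a small share of all counts. In pre-treatment the controls held 0.0463% (95% Wilson interval 0.0447% to 0.0479%) and 0.0554% (0.0538% to 0.0572%), and the H2O2 libraries 0.0737%, 0.119% and 0.143%, without overlap (exact permutation p = 0.2, two-sided, the smallest possible). This difference of 0.0611 percentage points rested on hsa-miR-1248, and without it the difference was 0.0109 (exact permutation p = 0.4, two-sided). hsa-miR-1248 made up 21.7% and 3.37% of that sum in the controls and 42.9%, 53.9% and 50.8% with H2O2. In co-treatment the share was 0.127%, 0.0821% and 0.122% in controls and 0.0779%, 0.258% and 0.118% with H2O2, where the highest value was again that of H2O2 replicate 2 (0.254% to 0.262%). The co-treatment groups overlapped, with a difference of 0.0411 percentage points (exact permutation p = 0.9, two-sided) that was 0.0168 without hsa-miR-1248.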

How the data were processed

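Small RNA of 11 SH-SY5Y libraries was made with the QIAseq miRNA Library Kit and sequenced on the Illumina NextSeq 500 platform. Trimming with Cutadapt 2.10, alignment to hg19 by Bowtie2 2.4.1 and counting of mature miRNAs by htseq-count 0.7.2 were done by the authors, who deposited raw counts. Tool versions follow the paper and the submitters' processing notes. The columns of fold changes and p-values that the authors derived with edgeR were not used. The miRNA release, strand setting and use of molecular identifiers are not given in the sources used here.

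Groups follow the sample titles. Tests used edgeR 4.0.16 in R 4.3.3 with TMM factors, on miRNAs above the CPM that 5 counts give in the shallowest library, reached by 3 or more libraries in co-treatment and by 2 or more in pre-treatment and the interaction. DESeq2 1.42.0, other scalings and filters, the replicate number as a block, a joint fit, summed hsa-miR-664 copies and left-out libraries were alternatives. GC trends (lowess, span 0.5, mean CPM of at least 10) were added after seeing the data. SE was log2FC divided by the square root of the F statistic. Log2 ratios used a prior count of 0.5 and likeness a prior count of 2. Sequences are from RefSeq (GRCh38.p14 table), matched exactly to GRCh37, and snoRNA genes are from a GENCODE annotation of GRCh37. Named are all 9 annotations, the lists, seed partners and the nearest 2 profiles per annotation tested in both experiments. Annotations and lists were chosen with earlier results of these data known. Fits were tested on simulated data. Replicate cultures were described as biological.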

Additional observations from a re-analysis of the deposited data

Results flagged for a closer look

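Of the 8 annotations tested for a difference in response to H2O2 between the experiments, only hsa-miR-1248 passed. Over all 945 miRNAs in that fit, 27.3% passed. Its log2FC was 3.29 (SE 0.67) in pre-treatment and 0.66 (SE 0.52) in co-treatment. The difference was 2.63 (SE = 0.80, edgeR quasi-likelihood FDR = 0.0244). In the same test the call was lost with the filter in all libraries (FDR = 0.0729). It was also lost on leaving out some single libraries (FDR from 0.0507 to 0.0623). With the GC trend removed, separate fits gave log2FC of 2.498 in pre-treatment and 1.41 in co-treatment. The interaction was not tested with that trend removed. The 2 pre-treatment controls lay below all co-treatment libraries, and the experiment and any batch between the experiments cannot be told apart. Groups of 2 or 3 libraries were too small for a test of outlying libraries.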

How the results depend on the processing

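In pre-treatment, 4 annotations were called by the exact test, and this number was 0 with the quasi-likelihood test, 2 with the replicate block in that test, and, in quasi-likelihood fits of the 348 miRNAs with a sequence (alternatives chosen after seeing the data), 1 without and 2 with the GC trend removed. With each library left out it ranged from 1 to 5, where a lone control was assumed to vary like the H2O2 libraries. In co-treatment, 1 was called, 0 in 1 fit of both experiments, and 0 to 2 with each library left out. The interaction called 1 annotation, 0 with the filter in all libraries and 4 with no filter. With each library except the pre-treatment controls left out, it called 0 to 3. Over all miRNAs the interaction called 258 of 945, 214 of 566 with the filter in all libraries and 260 of 1641 with no filter. Those left-out fits called 164 to 246 miRNAs. In pre-treatment, the fits of the 348 miRNAs with a sequence called 61 of them without and 41 with the GC trend removed. Over all miRNAs, calls under the alternatives ranged from 24 (GC trend removed) to 279 in co-treatment and from 9 to 449 in pre-treatment.

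Reversed directions were all in differences that had not passed a test. For ratios and shares, the group sizes allowed no exact permutation p under 0.05. In co-treatment, log2FC was −0.059 for hsa-miR-664b-5p with the replicate block, and with each library left out it ranged from −0.69 to 0.79 for hsa-miR-664b-5p, from −0.27 to 0.74 for hsa-miR-1291 and from −0.47 to 0.016 for hsa-miR-3607-3p. In pre-treatment it ranged from −0.51 to 0.38 for hsa-miR-664a-5p and from −0.12 to 0.77 for hsa-miR-3607-3p, and was 0.41 for hsa-miR-664a-5p when summed with hsa-miR-664b-5p. The difference of response ranged from −1.0 to 0.063 for hsa-miR-664a-5p and from −1.82 to 4.07 for hsa-miR-3607-5p. The pre-treatment arm ratio of hsa-miR-3607 (difference −0.74) was 0.18 with a prior count of 5 and ranged from −1.97 to 0.49 with each library left out. The co-treatment log2 ratio of hsa-miR-664b-5p over hsa-miR-664a-5p ranged from −1.10 to 0.15, and the difference of the co-treatment shares, 0.0411 percentage points, ranged from −0.0123 to 0.0778. The cause of these changes was not tested.

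The replicate numbers did not pair the libraries. The correlation of their deviations was 0.04, −0.16 and −0.16 in co-treatment and 0.22 and −0.05 in pre-treatment, across miRNAs. With the replicate block, hsa-miR-1248 and hsa-miR-664a-3p were called in pre-treatment and hsa-miR-664a-3p in co-treatment. The 2 pre-treatment controls limit every value of that experiment.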
